A study of Mus musculus with 8 samples.

Results

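The response of naive macrophages (Mϕ) to LPS/IFNγ is described here across all 16309 genes that reached a mean of at least 10 normalized counts over the 8 samples of the series, out of 55359 genes listed. Mϕ were bone marrow-derived macrophages (BMDMs) from femurs of adult C57BL/6 wildtype mice of both sexes. They were differentiated with M-CSF (20 ng/mL) and GM-CSF (20 ng/mL) in medium with 10% fetal calf serum. Differentiation took 7 days by the sample labels and 6 days by the methods of the study. The compared groups were Ctrl, naive Mϕ that received no stimulus, and LPS, naive Mϕ given LPS (100 ng/mL) together with murine IFNγ (100 U/mL) for 6 h, with n = 2 samples each. In both groups CD45+ cells were collected with magnetic beads before total RNA was sequenced after rRNA depletion. A second pair of groups, Eff and LPSEff, with n = 2 each, had first been kept for 16 h with apoptotic NIH-3T3 fibroblasts at 5 per Mϕ in the presence of 10 nM dimerizer, and is used here only to share the estimate of the spread and for a short comparison. Both stimuli were given together, so that the part of each cannot be told apart, and a culture differentiated with GM-CSF in addition to M-CSF differs from one with M-CSF alone. The labels do not say whether replicates came from separate cultures or animals, so the p-values measure the spread between these samples, which may be technical.

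LPS is a component of the outer membrane of Gram-negative bacteria. It is passed by CD14 to the receptor TLR4 with its partner MD-2, which signals through the adaptors MyD88 and TRIF to NF-κB, to MAP kinases with AP-1, and to interferon regulatory factors that switch on type I interferon. IFNγ, a cytokine of T and NK cells, acts through JAK kinases and STAT factors on GAS elements, whereas type I interferon acts through a complex with STAT2 and IRF9 on interferon-stimulated response elements (ISREs). Mϕ that receive both signals are known for making nitric oxide, cytokines and chemokines, for presenting antigen and for leaving the cell cycle.

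The libraries held 3481288 and 12020918 reads in Ctrl and 6548938 and 9344411 reads in LPS, so that 3 reads were worth 5.71 and 1.73 normalized counts in Ctrl and 3.88 and 3.05 in LPS. Replicates correlated across genes with r = 0.955 in Ctrl and 0.949 in LPS (genes are not independent replicates). The remaining 18S rRNA gene Rn18s-rs5 held 3.37% and 0.467% of the normalized total in Ctrl and 1.81% and 0.745% in LPS, replicate 1 being higher in each. The summed level of 12 Mϕ markers lay between 1.12e+05 and 1.16e+05 in all 4 libraries, with Lyz2 as the highest member, and Itgam and Csf1r were present in each of them. Of these markers 4 rose, Adgre1, Mertk, Cd14 and Fcer1g. Of 8 dendritic cell markers, 2 rose, Ccr7 and Xcr1. All 8 summed to 2361 and 3443 in Ctrl and 8604 and 17570 in LPS, mostly through Ccr7 (1839 and 2128 against 7649 and 14410). Flt3, Zbtb46, Dpp4 and Itgae were not called, and Cd209a and Clec9a stayed at or under 13.2. Markers of T, B, NK and erythroid cells summed to at most 74.1, and those of mast cells and basophils to 998 and 926 in Ctrl against 256 and 386 in LPS, where Kit fell, and Lck rose among the T cell markers. The 11 neutrophil markers summed to between 5245 and 7900, mostly through Mmp8, with Ly6g at or under 19.4. Of the 7 that were tested 3 rose, S100a8 from 309 and 270 to 570 and 573, Ngp from 145 and 79.8 to 331 and 468 and Camp from 11.4 and 6.36 to 78.9 and 36.6. Of the fibroblast markers only Pdgfrb rose, from 15.2 and 11.6 to 246 and 245, with Col1a1 at or under 38.6. The part of these markers in the results was not tested.

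LPS/IFNγ changed 3910 of the 16309 genes (24.0%), with 2015 genes that rose (12.4%) and 1895 that fell (11.6%). A gene counts as changed at a limma p under 0.05 after Benjamini-Hochberg adjustment. Fold changes are differences of log2(normalized count + 1), which understate the change of genes with low counts. The rises were larger than the falls: 354 genes rose and 43 fell by at least 8-fold, and 88 rose but 0 fell by at least 32-fold. The median was 1.69 on the log2 scale for the higher and −1.30 for the lower genes, with −0.01 for all tested genes. Both LPS values lay above both Ctrl values for 28.4% of all tested genes and below both for 30.9%, so that this separation, which each of the 3910 genes shows, is not by itself a sign of change. The share of called genes grew with the level, from 3.53% of genes with a mean under 10 in these 4 libraries to 43.4% of those over 1000. Scaling each library to the same total put the median gene at −0.40, and the split turned to 1420 higher and 4315 lower genes. Counts under this scaling or quantile normalization are given beside some gene lists, and lists without them may shift as well. The counts of every gene list stand beside the 12.4% of all tested genes that rose and the 11.6% that fell. The falls of aminoacyl-tRNA synthetases went from 7 to 11 with quantile normalization and 15 with equal totals. Those of sterol and fatty acid synthesis went from 11 to 16 and 21, and the class I rises from 18 to 13 and 16. The CXC chemokine rises stayed at 8 under both settings. Fewer genes were called without each of the 4 naive libraries, a fit that leaves 1 sample in a group, and the fewest without a Ctrl library.

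**Figure D1:**
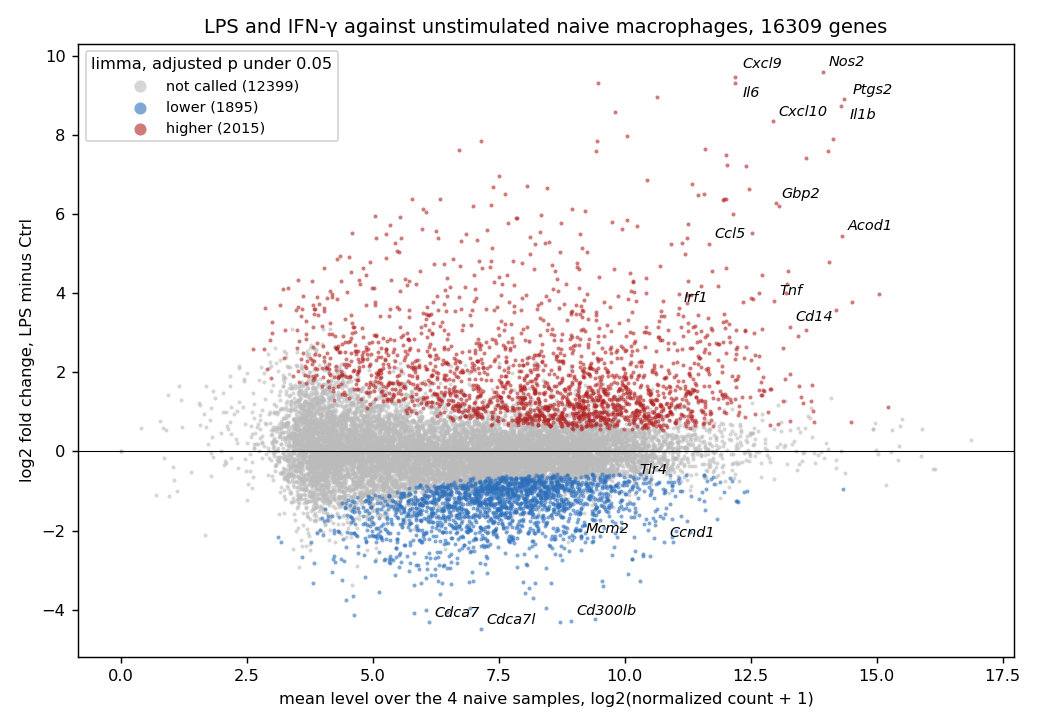
Each point is a gene, with its mean level over the 4 naive libraries on the x axis (log2 of the normalized count + 1) and its log2 fold change of LPS against Ctrl on the y axis, in red where it rose (2015), in blue where it fell (1895) and in grey where it was not called by limma. The rises reach 9.60 and the falls −4.49.

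The make-up of the libraries shifted as well. Genes that rose held 12.9% and 13.3% of the normalized total in Ctrl and 39.1% and 36.8% in LPS, and genes that fell held 14.1% and 13.9% in Ctrl and 4.59% and 4.55% in LPS. The gain was carried by few genes, since 107 of the 2015 higher genes held 50% of it and the 10 largest held 15.2%. Those 10 were Rnf213, Ptgs2, Ccl22, Il1b, Acod1, Rsad2, Il1a, Inhba, Slc7a2 and Nos2, and each of them had a higher level in both LPS samples. Rnf213, a large ubiquitin ligase of the antimicrobial response, gained most, from 4520 and 3538 normalized counts to 63990 and 62770. Inhba, which encodes the activin A subunit, went from 1122 and 1271 to 35810 and 30160. The loss was spread more widely, with 239 of the 1895 lower genes holding 50% of it. Among the 10 genes that lost most counts 1 was called, Lgals3, the β-galactoside-binding lectin galectin-3, at 30990 and 23380 in Ctrl against 13740 and 14140 in LPS, and its call was lost without each of the 4 naive libraries. In bulk samples, fewer cells of a type and less RNA per cell cannot be told apart.

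**Figure D2:**
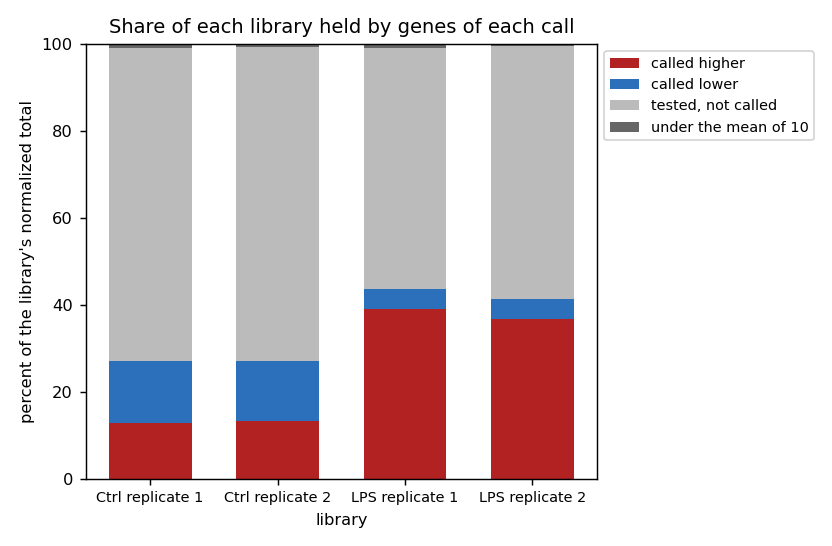
Each bar is 1 naive library and shows the percent of its normalized total held by genes that rose (red), genes that fell (blue), tested genes that were not called (light grey) and genes under the mean of 10 (dark grey). The red part is 12.9% and 13.3% in Ctrl and 39.1% and 36.8% in LPS.

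The largest rises included nitric oxide synthase, cytokine, chemokine and prostaglandin genes. Their mean counts in Ctrl lay under the median of tested protein-coding genes (195), though Il1b and Ptgs2 had up to 128 and 150 reads there. Nos2, the inducible nitric oxide synthase (ENSMUSG00000020826, chromosome 11), had 45.7 and 31.8 normalized counts in Ctrl and 37730 and 24540 in LPS. Il6, an acute-phase cytokine (chromosome 5, 30218112 to 30224979 in GRCm39), had 11.4 and 15.6 against 10570 and 8100. Ptgs2, the inducible cyclooxygenase COX-2 (chromosome 1, 149975194 to 149983978), had 83.8 and 86.8 against 45340 and 37840. In all 3 genes both LPS samples stood far above both Ctrl samples, and replicate 1 was the higher LPS sample. The log2 fold changes were 9.60 ± 0.27 (SE) for Nos2, 9.33 ± 0.24 for Il6 and 8.91 ± 0.18 for Ptgs2 (adjusted p = 1.5e-06, 1.3e-06 and 3.4e-07 from limma). Calhm6, a calcium homeostasis modulator gene (chromosome 10, 34002063 to 34004010), was at 0 and 3.47 in Ctrl and at 1061 and 1749 in LPS. Csf3, which encodes the granulocyte growth factor G-CSF, was at 7.62 and 1.16 against 5580 and 828, the widest spread between LPS replicates among the 10 largest rises. Il1b, the precursor of the pyrogenic cytokine IL-1β, went from 108 and 74.0 to 49520 and 30110 (8.73 ± 0.28). Each of these calls held without any of the 4 naive libraries.

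Several of the largest rises lie next to each other on chromosome 5. Cxcl9 (92469206 to 92475945 in GRCm39, minus strand), a ligand of the lymphocyte receptor CXCR3, was at 7.62 and 13.3 in Ctrl and at 4478 and 14070 in LPS. Cxcl10 (92494497 to 92496748, minus strand), a ligand of the same receptor, was at 43.8 and 49.7 against 14810 and 16520. Cxcl11 (92507403 to 92513344, minus strand), another CXCR3 ligand, was at 5.71 and 6.94 against 357 and 449. The log2 fold changes were 9.48 ± 0.52, 8.36 ± 0.34 and 5.78 ± 0.41 (SE). Art3, an ADP-ribosyltransferase gene on the opposite strand (92479653 to 92566011), spans Cxcl10 and Cxcl11 and went from 1.90 and 5.21 to 1052 and 2502. Of its exonic bases 8.47% lie opposite exons of Cxcl10 and Nup54. The methods of the study name default parameters of htseq-count without spelling out the strand setting, so that the value of Art3 is less certain. Genes named elsewhere have larger opposite-strand shares, among them Gpx1 (85.3%), Ccnd1 (48.4%), Irf1 (46%) and Csf3 (44.2%). Each of the 4 genes named here rose, but they were picked for large rises or, for Cxcl11, after its values had been seen. Their rise is therefore no count over the stretch, and other genes there, such as Nup54, are not reported here. Cxcl1, a neutrophil attractant elsewhere on chromosome 5, was at 7.62 and 4.63 against 3276 and 948.

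**Figure D3:**
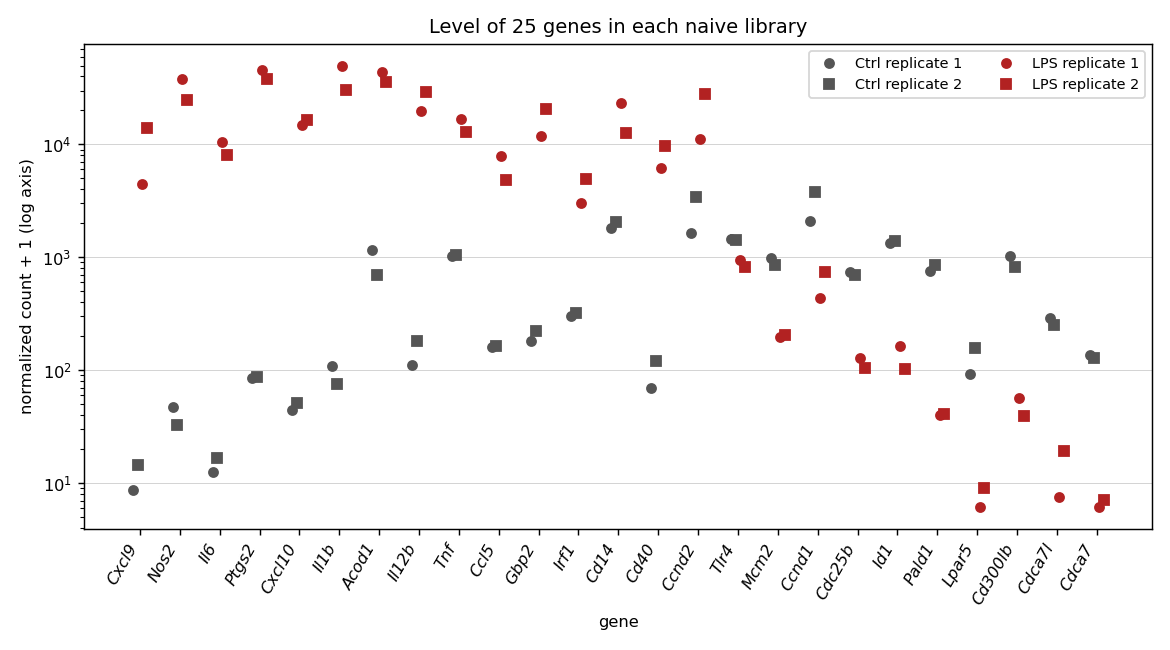
Each column is a gene and each point a library (Ctrl grey, LPS red, replicate 1 round, replicate 2 square), on a log axis of the normalized count + 1. Genes are ordered from the rises at the left to the falls at the right, and in each of the 25 genes both LPS points lie on one side of both Ctrl points. Tnf was added after its values had been seen.

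The promoters of the largest rises that have an entry in RefSeq (GRCm38.p6) and of the pair of largest falls are shown to set their letters side by side. Each is the 250 bases before the annotated start, 5′ to 3′ on the strand of the gene, with the matches to the searched motifs in capitals. Cxcl9 lies at chr5:92328080-92328329, Calhm6 at chr10:34127973-34128222, Il6 at chr5:30012864-30013113 and Ptgs2 at chr1:150099781-150100030. Cxcl10 (chr5:92348890-92349139) was added after its values had been seen. Of the falls, Cdca7l lies at chr12:117843611-117843860 and Cdca7 at chr2:72475969-72476218. Cxcl9, Calhm6 and Cxcl10 are on the minus strand and the others on the plus strand.
Cxcl9: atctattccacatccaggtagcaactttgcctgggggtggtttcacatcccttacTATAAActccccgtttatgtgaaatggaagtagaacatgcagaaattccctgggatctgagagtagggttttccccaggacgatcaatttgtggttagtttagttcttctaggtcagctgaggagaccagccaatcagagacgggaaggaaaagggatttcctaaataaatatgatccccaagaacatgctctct
Calhm6: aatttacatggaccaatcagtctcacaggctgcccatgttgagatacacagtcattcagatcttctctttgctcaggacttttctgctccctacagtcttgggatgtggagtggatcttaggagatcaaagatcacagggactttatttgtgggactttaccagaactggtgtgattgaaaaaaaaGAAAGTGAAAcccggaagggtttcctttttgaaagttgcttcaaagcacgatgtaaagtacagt
Il6: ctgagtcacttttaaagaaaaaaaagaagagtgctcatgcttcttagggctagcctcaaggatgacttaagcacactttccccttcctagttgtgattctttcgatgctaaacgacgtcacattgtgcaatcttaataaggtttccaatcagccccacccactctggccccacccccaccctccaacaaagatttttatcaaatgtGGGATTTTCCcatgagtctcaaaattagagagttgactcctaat
Ptgs2: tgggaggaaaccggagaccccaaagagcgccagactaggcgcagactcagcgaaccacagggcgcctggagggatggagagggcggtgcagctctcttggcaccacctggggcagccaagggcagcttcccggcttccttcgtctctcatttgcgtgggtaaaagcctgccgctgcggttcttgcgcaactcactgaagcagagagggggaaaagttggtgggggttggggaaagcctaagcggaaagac
Cxcl10: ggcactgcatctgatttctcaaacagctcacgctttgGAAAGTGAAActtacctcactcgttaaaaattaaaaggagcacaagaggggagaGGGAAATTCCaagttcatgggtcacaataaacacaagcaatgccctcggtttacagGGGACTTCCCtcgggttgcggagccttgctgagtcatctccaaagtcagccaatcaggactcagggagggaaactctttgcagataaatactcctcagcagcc
Cdca7l: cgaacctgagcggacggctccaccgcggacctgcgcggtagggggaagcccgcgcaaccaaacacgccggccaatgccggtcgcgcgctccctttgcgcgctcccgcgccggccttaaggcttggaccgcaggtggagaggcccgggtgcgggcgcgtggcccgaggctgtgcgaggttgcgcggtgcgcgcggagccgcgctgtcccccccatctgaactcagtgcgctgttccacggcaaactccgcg
Cdca7: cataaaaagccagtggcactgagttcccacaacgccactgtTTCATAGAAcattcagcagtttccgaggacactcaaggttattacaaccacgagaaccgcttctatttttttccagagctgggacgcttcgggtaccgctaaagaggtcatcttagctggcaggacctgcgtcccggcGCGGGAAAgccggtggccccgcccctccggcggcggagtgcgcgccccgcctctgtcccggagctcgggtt

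The motifs searched, on both strands, were the ISRE (GAAA and GAAA separated by 2 bases), the GAS element (TTCNNNGAA), the κB consensus, the TATA box (TATAAA), the E-box (CACGTG), the E2F site (TTTCCCGC or TTTGGCGC) and the NRF1 site. The capitals mark an ISRE in Calhm6, from 64 to 55 bases before the start, and a κB match in Il6, from 44 to 35. In Cxcl9 they mark a TATA match from 195 to 190 bases before the start. In Cxcl10 they mark an ISRE from 213 to 204 and κB matches from 159 to 150 and from 103 to 94 bases before the start. Cdca7 holds a GAS match from 209 to 201 and an E2F match from 71 to 64 bases before the start, the latter on the opposite strand. Ptgs2 and Cdca7l hold none of these letters in these windows. The windows differ in CpG dinucleotides, with 2 in Calhm6, 3 in Cxcl9, 3 in Il6, 5 in Cxcl10 and 13 in Ptgs2, against 21 in Cdca7 and 38 in Cdca7l. Matches of different motifs may share bases, and a match is a description of the letters that says nothing about binding.

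Across tested protein-coding genes, 12507 promoter windows of 300 bases (250 before and 50 after a start) could be read. An ISRE stood in 3.29% of the windows of all tested genes, 7.08% of those of genes that rose, 2.35% of those of genes that fell and 17.8% of the 276 windows of genes that rose at least 8-fold. In the 69 windows of genes with a fitted change over 5 on the log2 scale the share was 26.1%. The κB consensus stood in 5.37% of all windows, 8.14% of those of higher and 4.11% of those of lower genes, and the TATA box in 7.42% of all and in 19.2% of those of genes that rose at least 8-fold. The GAS element stood in 6.77% of all windows, 7.69% of those of higher and 6.62% of those of lower genes, and in 11.2% of those of genes that rose at least 8-fold against 4.30% of those of genes that fell at least 4-fold. The NRF1 site stood in 9.67% of all windows, in 0.362% of those of genes that rose at least 8-fold and in 5.38% of those of genes that fell at least 4-fold. The TATA share of the latter was 11.1%, so that both ends lay on the same side of all windows for these motifs. The median window held 20 CpG dinucleotides in all, 6 for genes that rose at least 8-fold and 17 for genes that fell at least 4-fold. The median GC content was 60.7%, 51.7% and 58.7% in the same order, and its part in the motif shares was not tested. A gene can have several windows, as the 276 windows of the 8-fold rises belong to 220 genes. E2F sites stood in 4.0% of the windows of lower and 1.68% of those of higher genes, against 2.89% of all. The shares for all promoters of the table were 3.44% for the ISRE, 8.30% for GAS, 4.51% for κB, 13.6% for TATA, 7.15% for the E-box, 1.57% for E2F and 4.60% for NRF1. Only 78.2% of the tested protein-coding genes have a promoter entry (78.1% of the higher and 80.3% of the lower genes), so that the shares are void as a check over all called genes and describe these promoters alone.

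**Figure D4:**
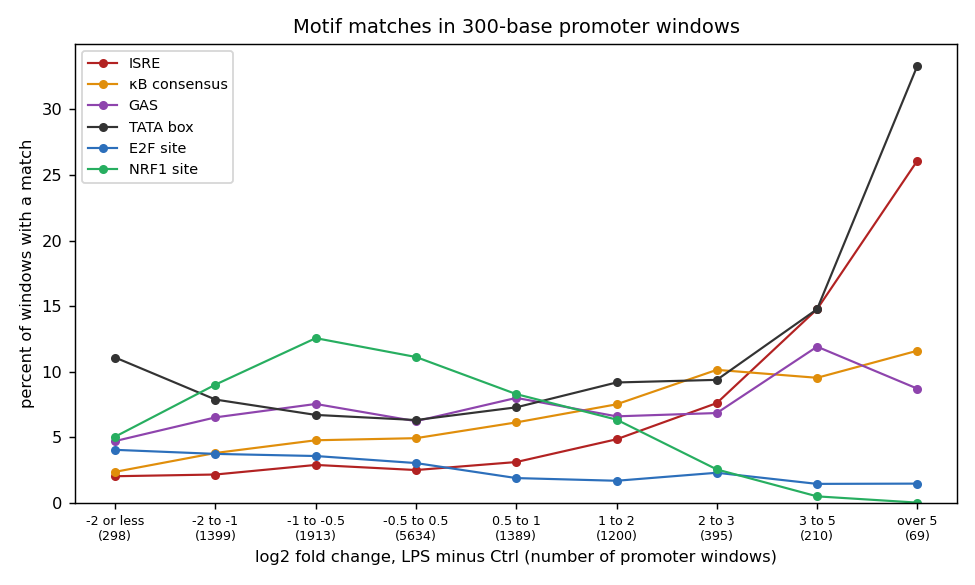
Promoter windows are grouped by the log2 fold change of their gene on the x axis, with the number of windows in each group, and the y axis gives the percent of windows with a match to each motif. The ISRE goes from 2.01% at −2 or less to 26.1% over 5 and the TATA box reaches 33.3%, whereas the NRF1 site goes from 11.1% at −0.5 to 0.5 to 0% over 5 and is at 5.03% at −2 or less.

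In the LPS receptor complex the largest change was that of CD14. Of 18 receptor and adaptor genes tested, 5 rose and 2 fell, where 12.4% and 11.6% of all tested genes did. The counts were 6 and 1 with edgeR and 4 and 5 with equal totals. The median of 0.15 turned to −0.25 with equal totals. Cd14, the co-receptor that hands LPS to TLR4, had 1809 and 2056 normalized counts in Ctrl and 23120 and 12720 in LPS (3.15 ± 0.29, adjusted p = 0.00027 from limma). Irak3, a kinase-like inhibitor of the pathway also called IRAK-M, went from 162 and 108 to 961 and 440, and Irak2, a signalling kinase, from 524 and 425 to 1656 and 1113. Tlr4, the receptor, was at 1440 and 1416 against 939 and 823 (−0.70 ± 0.21, adjusted p = 0.044), and its call, like that of Tab1 (a TAK1 partner), was lost without each naive library. The signalling adaptor Myd88 was at 426 and 524 against 640 and 844 and did not pass (adjusted p = 0.058). Ly96, which encodes MD-2, was at 81.9 and 77.5 against 56.9 and 126, so that its groups overlapped. The count of rises was 3 without either Ctrl sample, Irak3 being lost without Ctrl replicate 2, Tab2 without Ctrl replicate 1 and Traf6 without each naive library.

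Of 18 other sensors of microbial nucleic acids and cell walls 11 rose and 2 fell, with a median of 1.40. Zbp1, a sensor of Z-form nucleic acids, went from 135 and 90.8 to 2015 and 2354 (4.28 ± 0.36). Dhx58, the RIG-I-like receptor LGP2, went from 154 and 114 to 2122 and 2275, and Ifih1, the double-stranded RNA sensor MDA5, from 248 and 256 to 3377 and 4802. Mavs, the mitochondrial adaptor of these RNA sensors, fell instead, from 375 and 366 to 194 and 170, as did Tlr13, a sensor of bacterial ribosomal RNA, from 1600 and 1631 to 616 and 1118. Neither fall was called without Ctrl replicate 1 or without Ctrl replicate 2, and that of Tlr13 was also lost without LPS replicate 1.

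Most genes of interferon signalling rose. Of 15 interferon receptor, JAK and STAT genes, 11 rose and 0 fell (10 and 2 with quantile normalization, 7 and 2 with equal totals), with a median of 1.10. Stat2, a transcription factor of type I interferon signalling, went from 748 and 678 normalized counts in Ctrl to 4207 and 4631 in LPS, and Jak2, the kinase at the IFNγ receptor, from 1472 and 2306 to 8208 and 12410. Both LPS values of Stat2 lay far above both Ctrl values. Ifnar1 and Ifnar2, the subunits of the type I interferon receptor, rose by 0.60 and 0.86 on the log2 scale. The count was 7 without Ctrl replicate 2 and 7 without LPS replicate 2, the calls of Ifnar1, Ifnar2, Jak3, Stat5a and Stat5b each being lost without at least 1 library. The interferon genes themselves were scarcely detected: 0 of 10 reached the minimum, and Ifnb1, which encodes IFN-β, was at 1.90 and 0.578 in Ctrl and at 18.1 and 32.5 in LPS.

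Of 8 interferon regulatory factors, 6 rose and 0 fell (5 and 1 with equal totals), with a median of 1.22. Irf7, the amplifier of type I interferon, went from 103 and 89.1 to 4544 and 2970 (5.25 ± 0.49), Irf1, an IFNγ-inducible factor, from 303 and 317 to 3043 and 4923 (3.64 ± 0.24), and Irf8, a myeloid factor, from 1226 and 1158 to 3496 and 6894. The 3 genes kept their calls without each naive library, and the count of the list was 4 without either Ctrl sample or LPS replicate 2.

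The NF-κB list was the fullest of the signalling lists, with 18 of 20 genes higher, 0 lower and a median of 1.90. The highest rises were those of inhibitors and modifiers. Nfkbiz, the nuclear cofactor IκBζ, went from 139 and 106 to 2928 and 2277 (4.40 ± 0.32), and Tnfaip3, the ubiquitin-editing inhibitor A20, from 775 and 644 to 11120 and 8370 (3.77 ± 0.29). Nfkb2, the p100 subunit, went from 806 and 1075 to 6375 and 6065. All LPS values of these genes were several times the Ctrl values, and the count of rises in the list was lower without each naive library.

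Early transcription factors were split. Of 26 AP-1, ATF, C/EBP and other early factors, 9 rose and 4 fell, with a median of 0.78. Batf2, an AP-1 partner known from IFNγ-treated Mϕ, went from 20.9 and 21.4 to 309 and 541, and Nr4a3, an orphan nuclear receptor, from 364 and 481 to 2425 and 6485. Cebpa, a myeloid differentiation factor, fell from 741 and 885 to 111 and 287 (−2.17 ± 0.44), Egr2 from 470 and 278 to 124 and 122, and Fos, the AP-1 subunit, from 518 and 295 to 221 and 99.5. The falls were 2 without either Ctrl sample, with Cebpa lost without Ctrl replicate 2 and Fos without Ctrl replicate 1 or LPS replicate 2.

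Of 14 SOCS and related cytokine inhibitors, 8 rose and 1 fell (6 and 3 with equal totals), with a median of 0.65. Usp18, which blocks the type I interferon receptor, went from 394 and 365 to 6428 and 7503 (4.19 ± 0.22), Socs1, an inhibitor of JAK kinases, from 219 and 263 to 1971 and 1715, and Socs3, which limits IL-6 signalling, from 1460 and 943 to 5647 and 4393. Socs6 fell by 1.31 on the log2 scale. Of 11 MAP kinase phosphatases, 6 rose, led by Dusp2 (40.0 and 22.6 against 383 and 551), and 2 fell, Dusp3 and Dusp7, of which Dusp7 was lost without Ctrl replicate 1. Among 15 regulators of mRNA decay, 6 rose and 1 fell, where 12.4% and 11.6% of all tested genes did. Zc3h12a, the endonuclease regnase-1 that degrades cytokine mRNAs, went from 168 and 181 to 2164 and 1272 (3.25 ± 0.33), whereas Zfp36l2, an AU-rich element binder, fell from 1767 and 1217 to 444 and 241 (−2.16 ± 0.34).

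**Figure D5:**
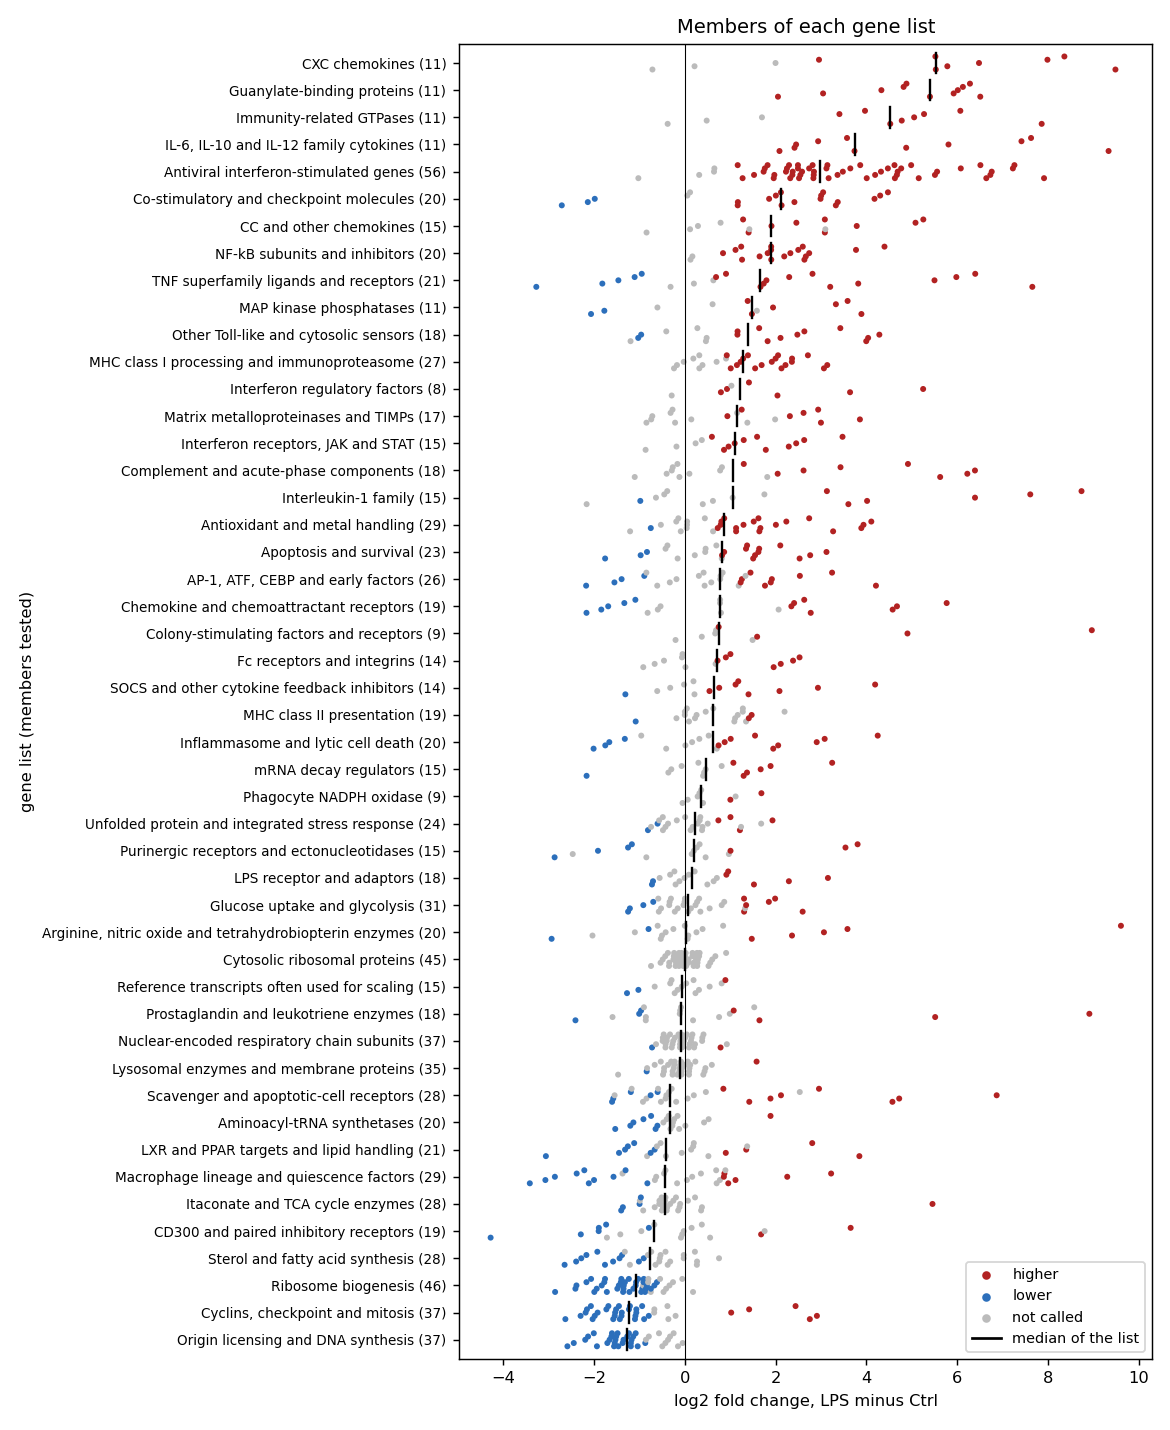
Each row is a gene list with the number of members tested, and each point a member at its log2 fold change of LPS against Ctrl, in red where it rose, in blue where it fell and in grey where it was not called. The black bar is the list's median, which goes from 5.53 for CXC chemokines to −1.27 for origin licensing and DNA synthesis.

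All 11 tested members of the IL-6, IL-10 and IL-12 families rose (median 3.74), where 12.4% of all genes did. Il12a, the p35 subunit of IL-12, was at 0 in both Ctrl samples and at 138 and 278 in LPS, which is at least 36.5-fold higher when Ctrl is set to a floor of 3 reads in the shallower library. Il12b, the p40 subunit, went from 110 and 180 to 19970 and 29320 (7.41 ± 0.43). Il27 and Ebi3, which encode the subunits of IL-27 and were named after their values had been seen, also rose, Il27 from 28.6 and 27.2 to 2166 and 1201. Il10, the anti-inflammatory cytokine of the family, was far lower than these at 1.90 and 0 in Ctrl and 45.3 and 10.2 in LPS. Both Ctrl values were at or under 3 reads, its fitted change depends on the pseudocount, and its call was lost without Ctrl replicate 2 and without LPS replicate 1. Among 15 interleukin-1 family genes 6 rose and 1 fell (6 and 2 with equal totals). Il1a, the alarmin IL-1α, went from 240 and 106 to 44200 and 22260 (7.61 ± 0.43), and Il36a, with at most 3 reads in either Ctrl sample, reached 230 and 87.3. The fall of Il1rl2, the IL-36 receptor (495 and 560 against 276 and 258), was lost without Ctrl replicate 2.

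In the TNF superfamily 13 of 21 members rose and 5 fell, with a median of 1.67. Tnfsf15, which encodes the T cell co-stimulator TL1A, went from 22.9 and 38.2 to 5800 and 6514 (7.65 ± 0.32), and Cd40, the receptor for T cell help, from 68.5 and 120 to 6128 and 9749 (6.39 ± 0.41). Tnfsf10, the death ligand TRAIL, went from 3.81 and 19.7 to 533 and 739. Tnf itself, named after its values had been seen, was already at 1026 and 1053 in Ctrl and reached 16650 and 12950 (3.82 ± 0.25). The falls included Tnfsf14, the lymphotoxin receptor ligand LIGHT (225 and 234 against 24.6 and 21.3), Tnfsf12, which encodes TWEAK (621 and 461 against 173 and 132), and Tnfsf13, which encodes APRIL (411 and 309 against 126 and 132). The annotated read-through gene Tnfsfm13 covers 52.4% of the exonic bases of Tnfsf12 and 65.7% of those of Tnfsf13, so that their levels are uncertain. The falls were 3 without either Ctrl sample.

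Of 11 CXC chemokines 8 rose and 0 fell, with a median of 5.53 (5.52 with Cxcl5 at its bound). Cxcl5, a neutrophil attractant named after its values had been seen, was at 0 in both Ctrl samples and at 55.6 and 36.6 in LPS, at least 8.07-fold higher against the floor. The count of rises was the same without each naive library, which does not show that the same members were called. Of 15 CC and other chemokines 9 rose and 0 fell (median 1.91), with 6 higher and 1 lower with quantile normalization, 7 and 1 with equal totals, and 5 rises without Ctrl replicate 1. Ccl5, a lymphocyte and monocyte attractant, went from 158 and 163 to 7851 and 4828 (5.25 ± 0.24). Ccl22, a ligand of CCR4, went from 2584 and 3472 to 29540 and 57810, and reached rank 7 among protein-coding genes by normalized counts per kilobase of exon, from rank 93 in Ctrl. Ccl2, the monocyte attractant MCP-1, was already high at 7687 and 7594 and went to 22700 and 15250, a call that was lost without either Ctrl sample and without LPS replicate 1. Ccl1 was at 0 and 1.74 against 19.4 and 152, and its call was lost without Ctrl replicate 1 or LPS replicate 2. By the same measure per length, Il1b went from rank 5808 to rank 9 and Acod1 from 489 to 10, ranks that were computed after values had been seen.

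The receptors for chemoattractants moved both ways, 7 of 19 higher and 5 lower. Ccrl2, a chemerin-binding receptor, went from 80.0 and 93.1 to 5490 and 4111 (5.77 ± 0.23), and the formyl peptide receptors Fpr1 and Fpr2 rose from at most 40.0 to between 228 and 758. Ccr2, the receptor of Ccl2, fell from 1422 and 758 to 243 and 219 (−2.16 ± 0.35). C3ar1, the receptor for the complement fragment C3a, fell from 2298 and 2322 to 616 and 836, and C5ar2 fell by 1.84 on the log2 scale, a call lost without either Ctrl sample and without LPS replicate 2. Of 9 colony-stimulating factor and receptor genes 4 rose and 0 fell (3 and 1 with quantile normalization). Csf2, which encodes GM-CSF, was at or under 3 reads in both Ctrl samples and at 111 and 35.5 in LPS, and Csf1, which encodes M-CSF, went from 703 and 695 to 2147 and 2074.

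Most interferon-stimulated genes rose. Of 56 antiviral members 52 rose and 0 fell, with a median of 2.98, and the counts without 1 naive library were 49 to 51. Rsad2, the antiviral enzyme viperin, went from 179 and 116 to 42310 and 28720 (7.91 ± 0.32, adjusted p = 9.5e-06 from limma), Oasl1, a regulator of IRF7 translation, from 47.6 and 59.6 to 8478 and 8133, and Cmpk2, a mitochondrial nucleotide kinase next to Rsad2, from 108 and 41.1 to 14200 and 7244. All 11 guanylate-binding proteins, IFNγ-induced GTPases that act on pathogen vacuoles, rose (median 5.40). Gbp2 went from 179 and 222 to 11770 and 20520 (6.28 ± 0.29), and Gbp6 from 1.90 and 5.21 to 348 and 426. Of 11 immunity-related GTPases 8 rose (median 4.52) and kept that count without each naive library. Iigp1, which attacks parasite vacuoles, went from 1.90 and 8.68 to 740 and 2040, and Ifi47 from 107 and 114 to 3457 and 5311. Tgtp2, at 0 and 2.31 in Ctrl, reached 82.8 and 177. These families hold near-identical copies among which reads may be split, so the level of a single member is less certain than that of its family, and 25.4% of the exonic bases of Gbp6 also belong to Gm43302.

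In antigen presentation, most genes of MHC class I processing rose, while limma calls in class II were no more frequent than among all tested genes. Of 27 genes of class I processing 18 rose and 0 fell (median 1.29). Nlrc5, the transactivator of class I genes, went from 638 and 442 to 4354 and 5036 (3.14 ± 0.23), Tap1, a subunit of the peptide transporter, from 885 and 1146 to 7419 and 9575 (3.06 ± 0.24), and Tapbpl, a peptide editor, from 126 and 188 to 708 and 1452. H2-D1, a classical class I gene that was already high, went from 7914 and 10170 to 15670 and 20900, but its call was lost without either Ctrl sample and without LPS replicate 2. Of all tested genes 12.4% rose and 11.6% fell, with a median of −0.01. Of 19 genes of the class II presentation list 2 rose and 1 fell (4 and 1 with DESeq2), with a median of 0.63. The rises were Cd1d1, a lipid-presenting class I-like molecule placed in this list (116 and 128 against 326 and 354), and Rfx5, a factor at class II promoters. Rfxank, another such factor, fell from 274 and 283 to 126 and 137. Cd74 and H2-Ab1, named after their values had been seen, were at 6253 and 12960 against 14320 and 36740, and at 3698 and 13860 against 9126 and 26100. Replicate 2 was above replicate 1 in both groups for each of them, and the groups of H2-Ab1 overlapped. The same order held for the dendritic cell markers Flt3, Zbtb46, Dpp4 and Itgae, whose part in the class II values was not tested.

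Of 20 co-stimulatory and checkpoint molecules 15 rose and 3 fell, with a median of 2.12. Vcam1, an adhesion molecule, went from 15.2 and 15.0 to 234 and 545, Cd69, an early activation antigen, from 74.3 and 139 to 1359 and 3022, and Slamf7, a homotypic receptor, from 232 and 341 to 3387 and 7697. In all 3 the higher LPS value was that of replicate 2. Vsir, which encodes the checkpoint ligand VISTA, fell from 1874 and 2039 to 260 and 342 (−2.71 ± 0.21), and Cd200r1, an inhibitory receptor, from 903 and 919 to 162 and 264. The fall of Cd276 was lost without either Ctrl sample and without LPS replicate 1.

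Of 20 genes of arginine, nitric oxide and tetrahydrobiopterin metabolism 5 rose and 2 fell (5 and 4 with quantile normalization, 5 and 6 with equal totals), with a median of 0.03 that turned to −0.37 with equal totals. Besides Nos2, Slc7a2, the arginine transporter CAT-2, went from 2932 and 2808 to 34080 and 34670 (3.58 ± 0.19), and Arg2, the mitochondrial arginase, from 45.7 and 32.4 to 466 and 233. Srm, spermidine synthase, fell from 484 and 332 to 67.3 and 39.6 (−2.93 ± 0.36), and the fall of Spr was lost without either Ctrl sample and without LPS replicate 1. Of 9 NADPH oxidase genes 2 rose and 0 fell (1 and 1 with quantile normalization), with a median of 0.36 that turned to −0.07 with quantile normalization and to −0.04 with equal totals. Beside both lists, 12.4% of all tested genes rose and 11.6% fell. Cybb, the catalytic subunit gp91phox, went from 6101 and 6612 to 18550 and 22530, and Ncf1 lost its call without either Ctrl sample and without LPS replicate 2.

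In carbon metabolism the largest rise was that of a single enzyme. Acod1, which makes itaconate from a citric acid cycle intermediate, went from 1167 and 696 to 43800 and 35700 (5.45 ± 0.38). It was the 1 rise among 28 itaconate and citric acid cycle genes, of which 4 fell (median −0.43), 13 with quantile normalization and 19 with equal totals. Idh1 and Idh3a, which encode isocitrate dehydrogenase subunits, fell by 1.40 and 1.36 on the log2 scale, and the falls were 2 without either Ctrl sample. Of 31 genes of glucose uptake and glycolysis 6 rose and 4 fell, with a median of 0.08 that turned to −0.20 with quantile normalization and to −0.32 with equal totals. For both lists, the shares over all tested genes were 12.4% higher and 11.6% lower. Slc2a6, a lysosomal hexose transporter, went from 1386 and 1284 to 8602 and 7557, Hk2, hexokinase 2, from 682 and 818 to 3655 and 2411, and Pfkfb3, which makes the activator of phosphofructokinase, from 746 and 778 to 2544 and 2976. Slc16a1, the lactate transporter MCT1, fell from 318 and 337 to 140 and 142 (−1.21 ± 0.18). It was the 1 fall left without Ctrl replicate 1, without Ctrl replicate 2 and without LPS replicate 1, where Aldoc and Slc2a3 lost their calls.

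Prostaglandin genes were split between the inducible and the constitutive enzyme. Ptges, the inducible prostaglandin E synthase, rose with Ptgs2 from 19.0 and 16.8 to 1732 and 428 (5.51 ± 0.58). Ptgs1, the constitutive cyclooxygenase COX-1, fell from 1255 and 1707 to 230 and 329 (−2.41 ± 0.24). Of 18 genes of this list 4 rose and 3 fell (3 and 5 with equal totals), where 12.4% and 11.6% of all tested genes did. The rises were 2 without Ctrl replicate 1, where Ch25h and Ptger4 lost their calls. Ch25h, a cholesterol hydroxylase, and Ptger4, a prostaglandin receptor, were placed in this list although neither makes prostaglandins. Ptger4 was named after its values had been seen. The falls were 1 without Ctrl replicate 2 or LPS replicate 1, where Alox5ap and Tbxas1 lost theirs.

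Complement and acute-phase genes rose in 8 of 18 cases with 0 lower (8 and 1 with quantile normalization, 7 and 2 with equal totals), and their median was 1.06. Cfb, factor B of the alternative pathway, went from 147 and 60.1 to 9967 and 6360 (6.39 ± 0.41), although 65.7% of its exonic bases also belong to Gm20547. Saa3, an acute-phase apolipoprotein, went from 312 and 143 to 22410 and 11190, and Lcn2, the siderophore-binding lipocalin-2, from 49.5 and 26.0 to 2569 and 1290. Of 29 antioxidant and metal-handling genes 18 rose and 1 fell (13 and 3 with equal totals), with a median of 0.87. Hamp, which encodes the iron hormone hepcidin, was at 0 in both Ctrl samples and at 12.9 and 20.3 in LPS, at least 2.91-fold higher against the floor. Slc7a11, the cystine transporter, went from 554 and 955 to 9976 and 11650 (3.89 ± 0.34). Steap4, a metalloreductase gene, was at 0 and 1.16 against 18.1 and 25.4. The count of rises was 12 to 16 without 1 naive library, and that of Fth1, the ferritin heavy chain and the called rise with the highest level in Ctrl (22590 and 24660 against 61630 and 43310), was lost without either Ctrl sample and without LPS replicate 1. The 1 fall, Gpx1, was lost without Ctrl replicate 2 and without either LPS sample.

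Of 20 inflammasome and lytic cell death genes 9 rose and 4 fell (6 and 5 with equal totals), with a median of 0.62. Mefv, which encodes the sensor pyrin, went from 3.81 and 5.21 to 71.1 and 148, Casp4, the cytosolic LPS sensor caspase-11, from 112 and 120 to 836 and 1175 (3.08 ± 0.22), and Nlrp3 from 796 and 1239 to 9164 and 6047. Txnip, Nlrp1b and Gsdme fell, at −2.01, −1.75 and −1.66 on the log2 scale. The falls were 2 without Ctrl replicate 1, 1 without Ctrl replicate 2 and 2 without LPS replicate 1. Of 23 apoptosis and survival genes 12 rose and 3 fell (8 and 6 with equal totals), with a median of 0.82, led by Traf1 (626 and 750 against 5346 and 6659), Cflar, the caspase-8 inhibitor c-FLIP (914 and 1088 against 5726 and 8000), and Birc3, an inhibitor of apoptosis (211 and 325 against 1246 and 1847). The rises were 6 without Ctrl replicate 1 and 6 without Ctrl replicate 2, and the falls 0 without Ctrl replicate 2 and 1 without LPS replicate 1, Bcl2, Casp9 and Bid being those that lost their call.

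Of 17 matrix metalloproteinase and inhibitor genes 7 rose and 0 fell (median 1.15), with 6 and 4 with quantile normalization, 5 and 3 with equal totals and 1 fall without LPS replicate 2. Mmp13, a collagenase, went from 493 and 1136 to 13320 and 8844 (3.86 ± 0.38), and Mmp14, a membrane-bound collagenase, from 310 and 326 to 2685 and 2420. Mmp12, the macrophage elastase, stood at 29520 and 53790 in Ctrl and 30950 and 62640 in LPS, with replicate 2 higher in both groups (0.14 ± 0.59, adjusted p = 0.90).

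The largest falls included a pair of related genes of the cell cycle and several surface proteins. Cdca7l had 289 and 249 normalized counts in Ctrl and 6.47 and 18.3 in LPS (−4.49 ± 0.42, adjusted p = 0.00027 from limma). Its relative Cdca7, which encodes a cell division cycle associated protein of DNA methylation maintenance, had 135 and 126 against 5.17 and 6.09 (−4.31 ± 0.38). Pald1, which encodes the phosphatase paladin, had 748 and 848 against 38.8 and 39.6 (−4.31 ± 0.20). In all 3 both LPS samples lay far below both Ctrl samples. Cd300lb, an activating receptor for apoptotic cells and lipids, was at 1028 and 815 against 55.6 and 38.6. Tns1, a focal adhesion protein, was at 1645 and 944 against 63.4 and 67.0, and Lpar5, a lysophosphatidic acid receptor, at 91.4 and 157 against 5.17 and 8.12. The remaining members of the 10 largest falls were Sh2d1b1, Gask1b, Rab3il1 and H2ac12, of which the histone gene H2ac12 (89.5 and 116 against 1.29 and 15.2) lost its call without either Ctrl sample.

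Surface receptors with inhibitory or lipid-binding roles were among the falls. Of 19 CD300 and paired inhibitory receptor genes 6 fell and 2 rose (median −0.67). Beside Cd300lb, Cd300a fell from 842 and 1081 to 112 and 335, a call lost without either Ctrl sample and without LPS replicate 1. Cd47, the "don't eat me" ligand, rose from 1280 and 1291 to 3940 and 4319. The falls were 2 without Ctrl replicate 1 and 2 without Ctrl replicate 2, and the rises 1 without Ctrl replicate 1 or LPS replicate 2, where Clec4a1 was lost. Of 28 scavenger and apoptotic-cell receptors 8 rose and 5 fell (6 and 10 with quantile normalization, 7 and 11 with equal totals), with a median of −0.32. Marco, a scavenger receptor for bacteria, went from 24.8 and 19.7 to 3424 and 2116 (6.87 ± 0.28), Olr1, the receptor for oxidized LDL, from 20.9 and 31.8 to 554 and 902, and Clec4e, the mycobacterial lipid receptor Mincle, from 944 and 630 to 19990 and 16910. Scarb1, the HDL receptor, fell from 1063 and 899 to 313 and 342, and Itgb5, an integrin subunit, from 1091 and 916 to 294 and 369. The falls were 2 without Ctrl replicate 1, without Ctrl replicate 2 and without LPS replicate 1, Tyro3 losing its call in each case. Of 14 Fc receptor and integrin genes 7 rose and 0 fell (4 and 3 with quantile normalization, 4 and 2 with equal totals, 7 and 1 with edgeR). The rises were 4 without Ctrl replicate 1 and 4 without Ctrl replicate 2, and Itga4, the α4 integrin, led with 792 and 967 against 4042 and 6310.

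Purinergic genes were called in 7 of 15 cases, 3 higher and 4 lower (2 and 6 with equal totals), with a median of 0.20 that turned to −0.20 with equal totals. Cd38, an NAD-consuming ectoenzyme, went from 251 and 89.6 to 2926 and 1526 (3.81 ± 0.56), and Adora2a, an adenosine receptor, from 66.7 and 87.3 to 958 and 839 (3.54 ± 0.25). P2ry1, an ADP receptor, fell from 546 and 386 to 54.3 and 71.1 (−2.87 ± 0.28), and Nt5e, the adenosine-forming ectoenzyme CD73, from 143 and 217 to 63.4 and 33.5. The falls were 1 without Ctrl replicate 2, where Nt5e and P2ry6 were lost, and 2 without LPS replicate 1.

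Among 29 Mϕ lineage and quiescence factors 10 fell and 6 rose (14 and 5 with quantile normalization, 16 and 4 with equal totals), with a median of −0.42. Id1 and Id3, inhibitors of basic helix-loop-helix factors, fell from 1344 and 1404 to 162 and 102 (−3.41 ± 0.27) and from 259 and 281 to 47.9 and 20.3. Pparg, the lipid-sensing nuclear receptor, fell from 166 and 111 to 25.9 and 12.2 (−2.86 ± 0.46). Mxd1, a MAX partner that opposes MYC, rose from 729 and 926 to 6680 and 8820 (3.22 ± 0.21), and Tcf4, a basic helix-loop-helix factor, from 206 and 392 to 1085 and 1706. Myc, which was named after its values had been seen, fell from 543 and 412 to 86.7 and 93.4 (−2.38 ± 0.35).

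Most genes of proliferation fell. Of 37 genes of origin licensing and DNA synthesis 27 fell and 0 rose (median −1.27), where 11.6% of all genes fell. E2f2, an S phase transcription factor, went from 468 and 402 to 60.8 and 84.3 (−2.58 ± 0.25, adjusted p = 0.00035 from limma), Cdc6, a loader of the replicative helicase, from 204 and 197 to 31.0 and 41.6, and Mcm2, a subunit of that helicase, from 981 and 846 to 194 and 203. Of 37 cyclin, checkpoint and mitosis genes 27 fell and 5 rose (median −1.23). Cdc25b, a phosphatase that activates cyclin-dependent kinases, fell from 743 and 693 to 128 and 104 (−2.63 ± 0.19), and the G1 cyclin gene Ccnd1 from 2081 and 3767 to 436 and 745 (−2.29 ± 0.36). Ccnd2, another G1 cyclin gene, rose instead, from 1641 and 3388 to 11140 and 28190 (2.91 ± 0.47), as did the stress genes Gadd45b, from 499 and 537 to 3318 and 3684, and Gadd45a. The falls of the first list were 17 without Ctrl replicate 2, and those of the second were 16 without Ctrl replicate 1, 8 without Ctrl replicate 2 and 12 without LPS replicate 1, with 3 rises without Ctrl replicate 1, where Gadd45a was lost.

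Most genes of ribosome biogenesis fell, while ribosomal protein genes were not called. Of 46 genes of ribosome biogenesis 35 fell and 0 rose (median −1.08). Dkc1, the pseudouridine synthase dyskerin, went from 263 and 257 to 31.0 and 39.6 (−2.85 ± 0.26), Rrp12, a factor of ribosomal subunit export, from 289 and 310 to 49.1 and 63.0, and Nolc1, a nucleolar chaperone of small nucleolar ribonucleoproteins, from 600 and 608 to 77.6 and 170. The count was 20 without Ctrl replicate 1, 18 without Ctrl replicate 2 and 23 without LPS replicate 1. Of 45 cytosolic ribosomal protein genes 0 were called by limma, 0 had an unadjusted p under 0.05, and edgeR and DESeq2 called 0, with a median of 0.00 that turned to −0.14 with quantile normalization and to −0.40 with equal totals. Under these settings 4 and 6 of them were called lower. Among 20 aminoacyl-tRNA synthetase genes 7 fell and 1 rose (median −0.33). The rise was that of Wars1, the IFNγ-inducible tryptophanyl-tRNA synthetase, from 430 and 457 to 1522 and 1776 (1.89 ± 0.17), and the largest fall that of Farsb, from 354 and 390 to 115 and 142. The falls were 2 without Ctrl replicate 2, 3 without LPS replicate 1 and 4 without LPS replicate 2.

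Of 28 genes of sterol and fatty acid synthesis 11 fell and 0 rose (median −0.78). Without 1 naive library the falls were 8 to 15, and 1 gene rose without LPS replicate 1 and with quantile normalization. Dhcr7, a late enzyme of cholesterol synthesis, went from 278 and 245 to 34.9 and 47.7 (−2.65 ± 0.36), Elovl6, a fatty acid elongase, from 198 and 309 to 41.4 and 51.8, and Fasn, fatty acid synthase, from 3500 and 3087 to 554 and 827 (−2.28 ± 0.26). Of 21 genes of lipid handling 4 rose and 7 fell (3 and 10 with equal totals). Gpr84, a receptor for medium-chain fatty acids, rose from 36.2 and 53.2 to 858 and 483, and Abca1, the cholesterol exporter, from 710 and 634 to 6967 and 3172 (2.81 ± 0.35). Angptl4, an inhibitor of lipoprotein lipase, fell from 36.2 and 26.6 to 3.88 and 2.03 (−3.06 ± 0.44). The falls were 2 without Ctrl replicate 1, without Ctrl replicate 2 and without LPS replicate 1, with Fabp4 and Acadm among those lost.

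Of 35 lysosomal genes 1 rose, Ctsc, the activator of granule proteases (4043 and 3587 against 11830 and 10980), and 1 fell, Npc1, a fall that was lost without Ctrl replicate 2, while 3 fell without LPS replicate 2 and 14 each with quantile normalization and with equal totals. Of 37 nuclear-encoded respiratory chain genes 1 rose and 1 fell, Uqcrfs1 and Ndufs7 (5 lower with quantile normalization, 11 with equal totals), with Uqcrfs1 lost without each naive library and Ndufs7 without either Ctrl sample and without LPS replicate 1. Of 24 genes of the unfolded protein and integrated stress responses 4 rose and 2 fell, near the 12.4% and 11.6% of all tested genes. The counts were 3 and 4 with quantile normalization and 2 and 7 with equal totals. The median of 0.23 turned to −0.21 with quantile normalization and to −0.17 with equal totals. Ppp1r15a, the phosphatase subunit GADD34, led with 204 and 186 against 763 and 728 (1.93 ± 0.25). Hspa5, the chaperone BiP, at 11070 and 9548 against 17150 and 17190, lost its call without each naive library and turned to −0.11 with quantile normalization. The rises of this list were 2 without either Ctrl sample and without LPS replicate 1, and the falls 0 without either Ctrl sample and 1 without LPS replicate 2.

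Among transcripts often used for scaling, most were not called. Gapdh, a glycolytic enzyme, was at 419 and 708 in Ctrl and 751 and 547 in LPS, with overlapping groups (0.24 ± 0.36), and Rplp0, a ribosomal protein, at 1481 and 1470 against 1564 and 1453 (0.03 ± 0.17). Tubb5, a β-tubulin, fell from 6950 and 7227 to 3213 and 3798 (−1.02 ± 0.19). Actb, β-actin, was at 27600 and 40190 against 50980 and 67090 and did not pass (0.81 ± 0.30, adjusted p = 0.084).

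The same stimulus in Mϕ that had taken up apoptotic cells is set beside these values, since the samples are separate. Of the 2015 genes that rose in naive Mϕ, 2008 had the same sign in LPSEff against Eff and 1496 were called higher there, where 10.7% of all genes were, with medians of 1.69 and 1.46. Of the 1895 genes that fell, 1882 had the same sign and 1204 were called lower, where 8.95% of all genes were, with medians of −1.30 and −1.07. The genes were picked by their naive call, so that the naive medians are not comparable with those of the other context. A test of the difference between both effects called 0 genes (0.0% of 16309, smallest adjusted p = 0.9999 from limma). At an unadjusted p under 0.05 stood 311 genes by limma. On the recovered reads edgeR and DESeq2 also called 0, with 369 and 244 at an unadjusted p under 0.05. With n = 2 per group, 0 calls do not show that both responses are equal. Nos2 rose by 9.60 in naive and 10.73 in efferocytic Mϕ, Ptgs2 by 8.91 and 7.43, and Il6 by 9.33 and 8.21. Cdca7 fell by 4.31 in naive Mϕ and by 2.96 in efferocytic Mϕ.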

How the data were processed

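Total RNA of naive and efferocytic BMDMs was sequenced in 8 samples (4 groups, n = 2), taken to their groups from the sample titles. The authors depleted rRNA before library preparation. Single-end reads passed adapter trimming (cutadapt), removal of leftover rRNA (bowtie2), alignment to mm39 (STAR) and counting over genes (htseq-count). The deposited signal is a normalized count, scaled by the authors with 1 DESeq2 size factor per sample. The worth of 1 read was read off the lowest value above 0 in each sample, and 100% of all values were whole numbers of reads (tolerance 0.01 read). Floors of 3 reads cover counting error only. GENCODE M39 (GRCm39) named 54749 of 55359 genes (98.9%), and positions outside the promoters are in this build.

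The main test was limma-trend (limma 3.58.1, R 4.3.3) on the log2 of normalized count + 1, for genes with a mean of at least 10, with all 4 group means in 1 fit (4 residual degrees of freedom) and Benjamini-Hochberg adjustment over 16309 genes. Alternatives were edgeR 4.0.16 and DESeq2 1.42.0 on the recovered reads, pseudocounts of 0.5 and 5, means above 0 or of at least 50, quantile normalization, equal totals, only the 4 naive samples, the replicate number as a block, and leaving out each library. The LPS against Ctrl comparison by limma, with and without the block, by edgeR and by DESeq2 was checked on simulated counts.

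Members and gene lists were chosen with earlier results of these data known, from general knowledge of the pathways. Genes were named by rule: the 10 largest rises and falls, the 3 largest called rises and falls of each list, the largest gains and losses of counts, the highest per kilobase, called genes at the extremes of level, the LPS receptor, JAK/STAT and scaling lists, and Il1b, Il6, Il10, Mmp12 and Gapdh. Others are marked as named after their values had been seen, apart from cell type markers. Values of some genes that these rules name are not reported here.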

Additional observations from a re-analysis of the deposited data

Results flagged for a closer look

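Slc16a1, the lactate transporter MCT1, fell in naive Mϕ and had an uncalled difference of the other sign in efferocytic Mϕ. In naive Mϕ it was at 318 and 337 normalized counts in Ctrl and 140 and 142 in LPS (log2 fold change −1.21 ± 0.18, SE), and in efferocytic Mϕ at 348 and 389 in Eff and 410 and 447 in LPSEff (0.22, adjusted p = 0.45 from limma). Both stimulated samples were lower in the first case and higher in the second. The test of the difference gave 1.43 ± 0.25 on the log2 scale with an adjusted p of 0.9999 from limma over 16309 genes, so that it did not pass. With n = 2 per group, no sample was tested for standing apart from its group.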

How the results depend on the processing

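The count of 3910 called genes (2015 higher, 1895 lower) grew to 6717 (3337 and 3380) when a replicate block was added to the fit and to 6663 (3439 and 3224) with edgeR and the same block, which was added after seeing the data. The labels do not say that the numbers mark a shared preparation, and the difference between replicates 1 and 2 in Ctrl had, across genes, a correlation of 0.465 with that in LPS (0.404 to 0.595 over all pairs of groups), so that the block is given here only. Under it, 10 genes of the class II presentation list were higher and 1 lower, and 15 genes of the citric acid cycle list were lower. With only the 4 naive samples 1249 genes were lower (2819 in all), and with equal totals 4315 were lower, 1420 higher and 5735 called. Leaving out 1 library of any group gave 2076 to 3562 called genes, 1166 to 1840 higher and 779 to 1727 lower. The shares of the normalized total held by genes called with edgeR were 13.87% for higher genes in Ctrl, and 14.6% in Ctrl and 4.83% in LPS for lower genes. Hspa5 and Msn turned to −0.11 and −0.17 with quantile normalization. Other counts of called genes were 3175 with a mean above 0, 3575 with a mean of at least 50, 3901 and 3943 with pseudocounts of 0.5 and 5, 4146 with quantile normalization, 3991 with edgeR (3756 of the 3910 among them) and 3965 with DESeq2 (3576 among them). The difference between both contexts had 0 calls under each alternative run. The genes at an unadjusted p under 0.05 in that test were 311 in the main limma fit, 1052 with the limma block and 1105 with the edgeR block. Of 229 named genes that were called, 162 kept the call without each naive library and 67 lost it with at least 1 of them (48, 54, 40 and 29 without Ctrl replicates 1 and 2 and LPS replicates 1 and 2). Depth limits the low genes: 62 genes that rose had at most 3 reads in both Ctrl samples, and 8 that fell had at most 3 in both LPS samples.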

Other observations

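Among long noncoding RNAs, calls were more often rises than falls. Of 1240 lncRNA genes tested, 166 rose (13.4%) and 67 fell (5.40%), against 1719 (13.8%) and 1803 (14.4%) of 12498 protein-coding genes. Of 1382 processed pseudogenes, whose reads may be shared with their parent genes, 29 rose and 1 fell. U90926, annotated as protein-coding on chromosome 5 before the chemokine stretch, was at 0 in both Ctrl samples and at 445 and 121 in LPS, at least 49.5-fold higher against the floor of 3 reads in the shallower library. It was named after its values had been seen.

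Protein-coding genes that rose by at least 8-fold (n = 296) were shorter, with a median of 7 exons and 18.2 kb of gene length. The medians for all 12498 tested protein-coding genes were 9 exons and 26.6 kb. The median level of these 296 genes was 30.9 normalized counts in Ctrl and 710 in LPS. Of the 312 genes that fell by at least 4-fold, 278 were protein-coding. These 278 had a median of 210 in Ctrl and 38.6 in LPS, with 8 exons and 24.7 kb.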
